A study of Rattus norvegicus with 6 samples.

Results

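Gene-desert peaks are the sites of the α1ACT 1804 library that lie between genes and far from any transcription start site (TSS). They were taken from the authors' annotated table of α1ACT-only peaks, which are peaks of that library with no overlapping empty-vector peak. A peak was a member when the authors annotated it as distal intergenic and placed it more than 500 kb from the TSS of its assigned, nearest gene. Of the 159452 annotated peaks, 29848 met the rule, or 18.7% (95% interval 18.5 to 18.9, Clopper-Pearson). The signal of a peak did not enter the rule.

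The libraries came from PC12 cells, a line from a rat tumour of the adrenal medulla (pheochromocytoma), whose cells derive from the neural crest, at passages 18 to 20. One line stably carried the empty pCDNA3 vector (EV) and the other stably expressed human α1ACT, a transcription factor encoded within CACNA1A. The second line appears as Q11 in sample titles. Each line gave 3 ChIP-seq libraries, precipitated with the M2 antibody, precipitated with an antibody labelled 1804, or left as input. M2 is an anti-FLAG antibody, the target of 1804 is not given in the labels, and the series' design text speaks of tissues at day 3 whereas every sample label names PC12 cells. Each line stands as a single stable line with 1 library per antibody, and both lines share the PC12 background.

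A gene desert is a long stretch of chromosome without annotated genes. Such stretches often flank genes of neural adhesion and developmental control, and some hold enhancers that act on a promoter far along the same chromosome. Others are gene-poor, rich in repeats and late replicating, and the reads of repeats are hard to place. A nearest-gene assignment names a neighbour and does not show which gene, if any, a site acts on.

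The files hold peaks and no read totals, so depth is unknown. With 1 library per group there is no replicate error and no test between groups. Intervals below cover counting error only, and neighbouring peaks of 1 library are not independent, so true uncertainty is wider. The signal is the authors' own value per peak, with a scaling between libraries that is not stated. All coordinates are on rn5. Every peak was 56 bp wide.

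The members reached far beyond the 500 kb limit. Their median distance to the assigned TSS was 922 kb, with quartiles at 669.7 kb and 1.38 Mb. In all, 13150 (44.1%) lay more than 1 Mb away, 3462 (11.6%) more than 2 Mb and 253 more than 5 Mb. The 3 farthest members formed one run at 13:20814697-20815228, 6.06 Mb upstream of Cntnap5b, which encodes a neurexin-family adhesion protein; their signals were 4.26, 2.11 and 2.61. They belonged to a group of 4 peaks, each within 1 kb of the next. At the limit itself, the 3 innermost members lay 500028, 500034 and 500065 bp from a TSS with signals of 4.35, 2.63 and 2.99, and the 3 peaks just outside lay at 499974, 499992 and 499997 bp with 4.26, 2.77 and 4.50. Beyond 500 kb the table also held 993 intronic peaks, 1 exonic peak and 1 downstream peak, which are not members.

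The label "gene desert" rests on the TSSs that the authors' table listed, and it held less well for a later gene set. Every member's nearest listed TSS was within 56 bp of the distance in the authors' table, and 29846 of the 29848 lay over 500 kb from every listed TSS. This was largely set by the selection, because the listed TSSs come from the table that gave the distances. Genes without an assigned peak are missing from them. The listed TSSs belonged almost entirely to curated RefSeq transcripts: 14039 genes were listed by a protein-coding transcript accession and 357 by a non-coding one. In the gene order of the later assembly GRCr8, 398 of the stretches between listed TSSs could be found by both flanking genes on one chromosome. These had a median of 1 protein-coding gene between the flanks (quartiles 0 and 3), and 105 of them (26.4%) had none. With placeholder symbols left out, 147 (36.9%) had none. The highest count was 710, so a pair of flanks may not bound the same sequence in both assemblies. Of the 25205 members in the 398 stretches, 21355 lay in a stretch with at least 1 protein-coding gene, placeholders included. Between Cdh10 and Basp1, for example, GRCr8 lists Cdh12 and Cdh18, a pair of cadherin genes that are missing from the authors' table. Members are thus far from the TSSs that the authors' annotation listed, and some may lie nearer to a gene of the later set.

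In signal the members were ordinary at the middle of the distribution and short at its top. Their signals ran from 2.00 to 25.5, with quartiles at 2.45 and 3.75 and a median of 2.96 (95% interval 2.96 to 2.97). Intergenic peaks 50 to 500 kb from a TSS had a median of 2.98 and those within 50 kb one of 3.00 (2.99 to 3.00). The medians of the 3 intergenic classes therefore differed by far less than the spread of peaks within each class. The upper end differed more: the 99th percentile was 7.76 among members, 8.39 at 50 to 500 kb and 9.26 within 50 kb. The highest member reached 25.5, the highest intergenic peak within 50 kb 143 and the highest annotated peak 899. All of these are α1ACT-only peaks. Desert peaks of the library that overlapped an EV peak reached 484 and are not members. Such removed peaks nearer to a TSS are not given.

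High-signal peaks were scarcer among the members than among intergenic peaks nearer to a TSS. Of the members, 1985 were among the 10% of annotated peaks with the highest signal, a level of 5.28 or more; that is 6.65% (6.37 to 6.94). The share was 7.85% (7.64 to 8.06) at 50 to 500 kb, 9.36% (9.01 to 9.71) within 50 kb and 10.8% among all peaks that were not members. These intervals treat neighbouring peaks of 1 library as independent, so their separation is no test of a difference between classes. Counted as groups of peaks within 1 kb, the share with a peak in the upper 10% was 9.96% among members. It was 11.2% at 50 to 500 kb and 12.5% within 50 kb. Within the members the share showed no steady course with distance: it was 7.18% at 0.5 to 0.6 Mb, 6.38% at 0.6 to 0.8 Mb, 6.62% at 0.8 to 1 Mb, 6.38% at 1 to 1.5 Mb, 7.66% at 1.5 to 2 Mb and 6.18% beyond 2 Mb. The medians in these 6 bins lay between 2.94 and 2.97. The −log10 q-values deposited for the members ran from 1.33 to 3.89 with a median of 2.72, against a median of 2.75 for all annotated peaks.

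**Figure D1:**
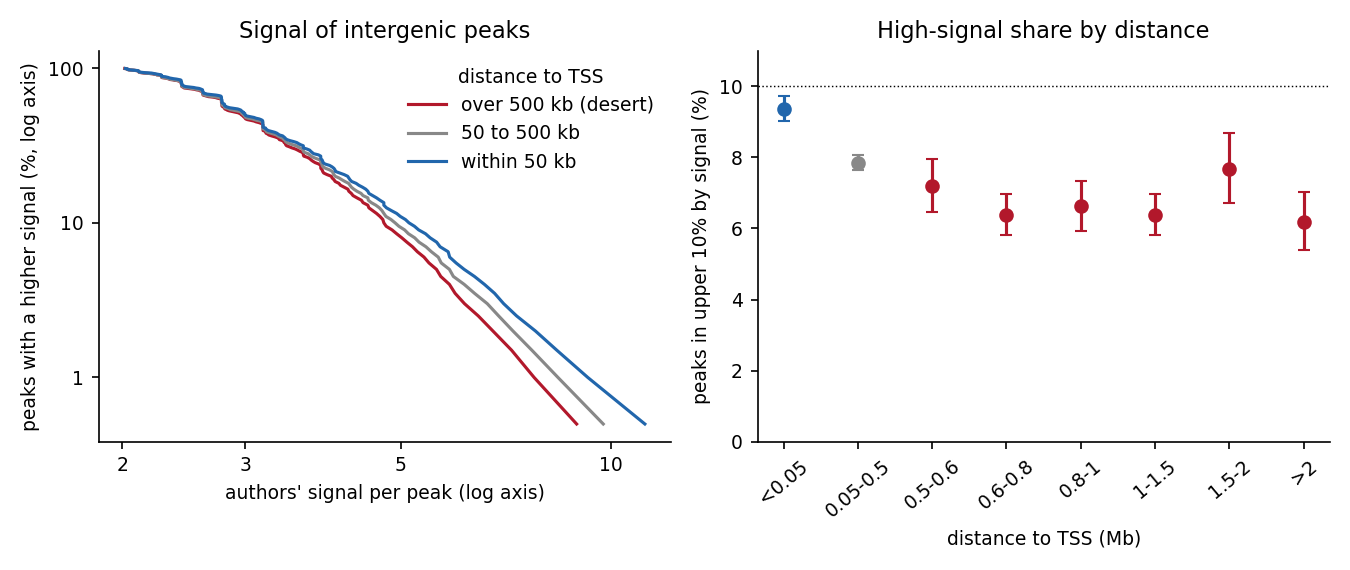
Left, share of intergenic peaks (%, log axis) whose signal exceeds the value on the x axis (authors' signal, log axis), for peaks over 500 kb, 50 to 500 kb and within 50 kb of a TSS; right, share of peaks among the 10% with the highest signal (%) by distance to the TSS (Mb), with 95% Clopper-Pearson intervals and a dotted line at 10%. The 3 curves coincide near a signal of 3 and part above 5, where the desert curve is lowest, and all 6 desert points at the right lie between 6.18% and 7.66%.

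A small set of members stood far above the rest. A signal of 5 or more was found in 2428 members, of 10 or more in 79 and of 20 or more in 8. The highest, at 1:201218002-201218057 with a signal of 25.5, lay 601 kb downstream of Nupr1, which encodes a stress-induced chromatin protein. The second, at 2:180006023-180006078 with 25.3, lay 2.49 Mb upstream of Veph1, a gene expressed in the developing nervous system. The third, at 11:14129993-14130048 with 25.2, lay 1.12 Mb downstream of Robo2, the axon guidance receptor for Slit proteins. A second Veph1 site followed at 2:180268241-180268296 with 23.9. These 4 sites were 1 or 2 peaks wide and stood alone or as a pair within 1 kb, not in the long runs described below.

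The next named sites had signals between 17.3 and 21.0. The site assigned to Aga, a lysosomal glycoprotein hydrolase, was at 16:43017619-43017674 with 21.0, and that of Ppp1r14c, a phosphatase inhibitor, at 1:40602922-40602977 with 20.7. Tsn, which encodes the nucleic acid-binding protein translin, was assigned 13:38794026-38794081 with 20.3. B3galt2, a galactosyltransferase, was assigned 13:64656184-64656239 with 19.9. The tenth, at 19:39840902-39840957 with 17.3, was 524 kb downstream of the vomeronasal receptor gene Vom1r21 and sat inside a run of 20 peaks.

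The highest members were not all far from empty-vector signal. The Veph1 site of signal 25.3 lay 5 bp from an EV 1804 peak of signal 15.3, and the Tsn site lay 44 bp from an EV M2 peak of signal 24.0. Both are in the α1ACT-only table because the 56 bp intervals do not overlap. The nearest EV peak was 7.38 Mb from the Nupr1 site, 9.29 Mb from the Robo2 site, 262 kb from the second Veph1 site and 1.06 Mb from the Ppp1r14c site. Of all members, 15 (0.0503%, 0.0281 to 0.0829) had an EV peak within 1 kb. The share was 6 of 1985 (0.302%, 0.111 to 0.657) among members of the upper 10% by signal and 9 of 27863 (0.0323%, 0.0148 to 0.0613) among the others. It was 2 of the 10 highest. The EV lists themselves began at higher signals, 14.0 for 1804 and 19.0 for M2. Only 23 members reached the first level, 9 the second and none the lowest signal of the α1ACT M2 list, 53.6. Because the scale between lists is not stated, absence from an EV list cannot show for any member that the EV library lacked signal there.

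Per unit of length, with long peak-free stretches counted in, deserts held about as many peaks as other intergenic sequence. The territory over 500 kb from every listed TSS measured 550.1 Mb, 19.1% of the 2886 Mb between the first and the last annotated peak of each chromosome. It held 54.3 peaks per Mb (53.6 to 54.9, exact Poisson interval), against 57.9 per Mb in intergenic territory 50 to 500 kb from a TSS and 51.2 per Mb (50.6 to 51.8) at 3 to 50 kb. Peaks of the upper 10% by signal were sparser, at 3.61 per Mb against 4.79 at 3 to 50 kb, a ratio of 0.753. Peaks of the lower 50% numbered 29.0 per Mb in deserts and 26.1 at 3 to 50 kb, a ratio of 1.11.

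These densities depend on the distance limit and on how peak-free sequence is counted. With a limit of 1 Mb in place of 500 kb the desert density was 45.0 per Mb and its ratio to 3 to 50 kb 0.879, in place of 1.06. That value counts peak-free sequence in, and the limit of 1 Mb was not run without it. The chromosomes held 23 stretches of more than 500 kb without any annotated peak, 146 Mb in all, of which 132 Mb was desert, 24.0% of the desert territory. The longest, on chromosome 4, ran for 65.2 Mb, and the next were 19.6 Mb on chromosome 2, 11.4 Mb on chromosome 19 and 10.4 Mb on chromosome 6. Whether a peak could be called in these stretches at all was not tested, because no rn5 genome was used. With these stretches taken out, a setting chosen after seeing the data, the desert density rose to 71.4 per Mb, that at 50 to 500 kb was 58.6 and that at 3 to 50 kb was 51.3, so that the ratio to the nearest class went from 1.06 to 1.39. The density of upper 10% peaks was then 4.75 per Mb in deserts and 4.80 per Mb at 3 to 50 kb, a ratio of 0.988 in place of 0.753.

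**Figure D2:**
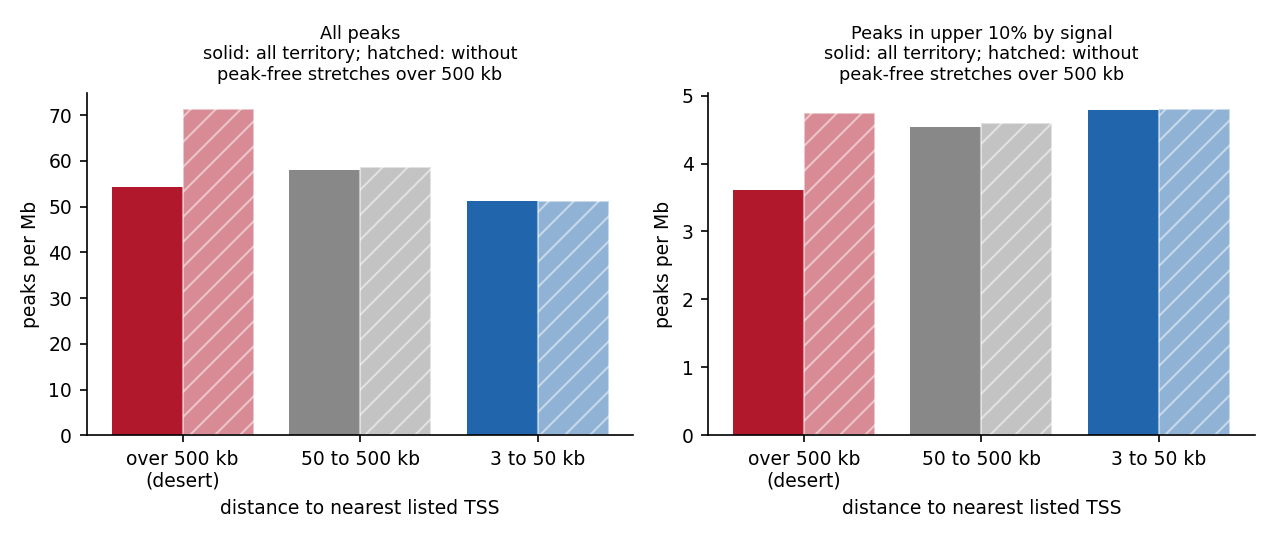
Peaks per Mb of territory over 500 kb, 50 to 500 kb and 3 to 50 kb from the nearest listed TSS, for all annotated peaks (left) and for those among the 10% with the highest signal (right); solid bars use all territory and hatched bars leave out peak-free stretches of more than 500 kb. The desert bar moves most between the settings, from 54.3 to 71.4 per Mb for all peaks and from 3.61 to 4.75 per Mb for high-signal peaks.

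Members came in tight local runs more often than intergenic peaks near genes. Another annotated peak started within 1 kb of 58.1% of them (57.5 to 58.6), compared with 55.8% (55.4 to 56.2) at 50 to 500 kb and 47.7% (47.1 to 48.3) within 50 kb. The median spacing to the nearest peak was 731, 776 and 1145 bp in the 3 classes. Evenly spread over the desert territory, members would stand 18.4 kb apart. The closest spacing was 199 bp, and 27.7% of members had their nearest peak 200 to 400 bp away. The number of members is therefore larger than the number of separate places they mark.

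Chaining peaks within 1 kb of each other gave 17819 groups, of which 12521 (70.3%) were single peaks, 940 held 5 or more and 93 held 10 or more. The share of peaks in groups of 5 or more was 21.0% among members (20.5 to 21.5), 20.9% at 50 to 500 kb and 14.1% (13.7 to 14.5) within 50 kb. The 93 largest groups held 1037 members on 18 chromosomes. Their spans had a median of 4.95 kb with quartiles at 4.29 and 5.56 kb, and 78 of the 93 were between 4 and 7 kb long. Similar lengths were found elsewhere: the median was 5.01 kb for the 197 such groups at 50 to 500 kb and 5.12 kb for the 49 within 50 kb. These lengths depend on the rule of 10 or more peaks chained within 1 kb and are not an independent measure.

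The longest runs lay beside Vom1r21, a pheromone receptor gene. One of 28 peaks covered 11.1 kb at 19:40171139-40182240, with signals of 2.24 to 8.42 and a median of 3.86. One of 20 peaks covered 9.30 kb at 19:39832558-39841856, with a highest signal of 17.3. Each of the other runs had 13 peaks or fewer. Among those with 13 were runs assigned to Pcdh9 at 15:78522677-78528877 (6.20 kb, highest signal 4.42) and to Cdh10 at 2:92026315-92031747 (5.43 kb, 7.09). Members in groups of 10 or more had a median signal of 2.96, against 2.98 for members standing alone, so the length of a run and the signal of its peaks did not go together at the median. The share in the upper 10% was 8.97% in those groups and 6.31% among single members. What repeats these runs overlap was not analysed here.

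The members filled 436 of 498 stretches that lie over 500 kb from every listed TSS, with a median of 30 members in those that held any. Of 152 stretches with 1 Mb or more of intergenic sequence, 10 held no member, 103 Mb in all, and the other 142 held 22733 members (76.2%). Among those 142, densities ran from 3.97 to 157 per Mb with a median of 68.1 and quartiles at 53.1 and 81.2. The 5 stretches with most members held 3333 (11.2%). The stretch from Olr1065, an olfactory receptor gene, to Cntnap5b on chromosome 13 held 1004 members in 11.1 Mb, or 90.2 per Mb. That from Veph1 to Shox2, a limb and heart homeobox gene, on chromosome 2 held 637 in 4.96 Mb, or 128 per Mb. Those from Cdh10 to Basp1, a growth cone protein gene, from Cobl, an actin nucleator gene, to Sec61g, a subunit of the protein translocation channel, and from Pabpc4l to a gene with a placeholder symbol held 613, 587 and 492.

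The highest signal was 9.93 in the Olr1065 to Cntnap5b stretch, 8.48 from Cdh10 to Basp1, 15.4 from Cobl to Sec61g, 25.3 from Veph1 to Shox2 and 13.1 in the stretch beside Pabpc4l. The medians of these 5 stretches lay between 2.94 and 3.06, and their shares in the upper 10% ran from 6.04% from Cdh10 to Basp1 to 9.37% from Cobl to Sec61g. Density varied widely between the long stretches. It reached 156 per Mb between Bmp4, a bone morphogenetic protein gene, and Cdkn3, a cell cycle phosphatase gene, and 143 per Mb between Nr2f1, a nuclear receptor gene of forebrain patterning, and Arrdc3; no protein-coding gene lies between either pair in GRCr8. The sparsest of the long stretches with a member, from Atg10 to Ckmt2 on chromosome 2, held 78 members in 19.6 Mb, 19.1 Mb of it without any peak. Of the 10 without a member, the longest ran 64.7 Mb from Tmem178b to Prss37 on chromosome 4. GRCr8 lists 6 protein-coding genes between that pair.

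**Figure D3:**
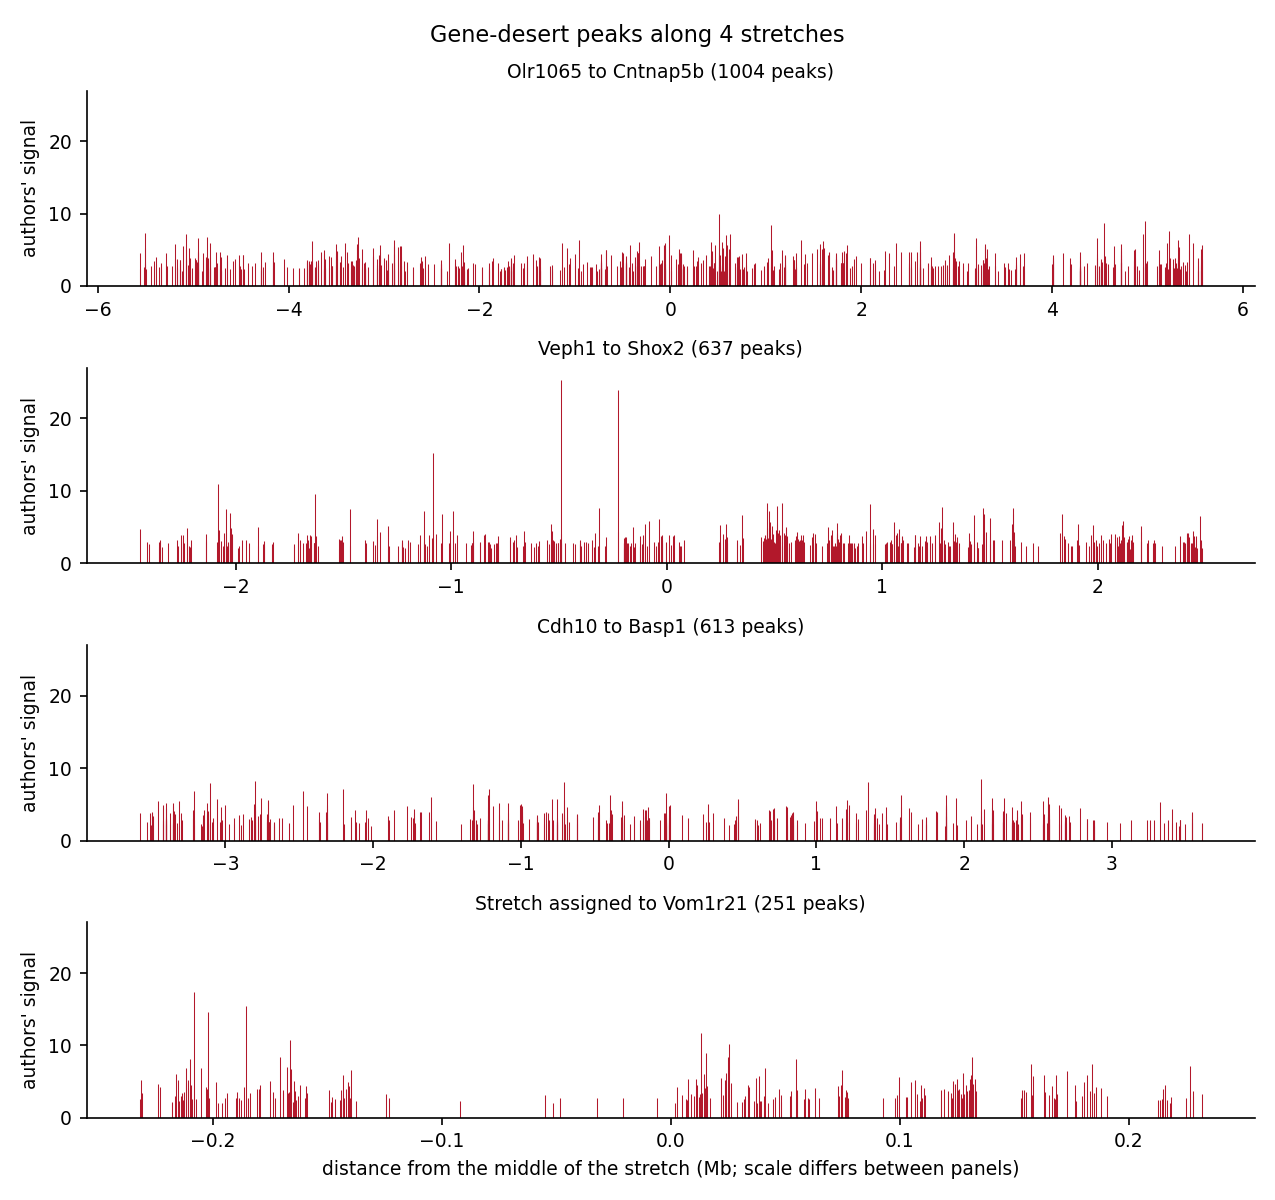
Members along 4 stretches, each line 1 peak, with the authors' signal as height and the distance from the middle of the stretch in Mb on the x axis, whose scale differs between panels. In the Olr1065 to Cntnap5b and Cdh10 to Basp1 panels no peak exceeds 9.93, the Veph1 to Shox2 panel has lone peaks of 25.3 and 23.9, and the 251 peaks assigned to Vom1r21 fall into separate clumps with a highest signal of 17.3.

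The members were assigned to 741 genes, 5.15% (4.79 to 5.52) of the 14390 genes in the table. A gene had a median of 19 members; 51 genes had 1, and 71 genes with 100 or more held 13131 members (44.0%). Cntnap5b led with 548, of which 520 lay upstream, spread over 7.59 Mb of chromosome 13. Olr1065 followed with 484, all downstream, over 5.54 Mb. Vom2r57, a vomeronasal receptor gene on chromosome 7, had 435. Next came Shox2 with 385, Cdh10 with 379, Dsel, an enzyme gene of dermatan sulfate synthesis, with 319, and Pcdh7, a protocadherin gene, with 317. Cobl had 306, Pcdh9 290 and Pabpc4l 287. The 10 genes together held 3750 members (12.6%).

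Median signals at 9 of these 10 genes lay between 2.80 and 3.01. The exception was Vom2r57 with 3.34, where 61 of 435 members (14.0%) were among the upper 10% by signal, against 6.65% of all members. Cobl had a median of 3.01 but 36 of 306 (11.8%) in the upper 10%. The other 8 had 6.27% to 7.39% there.

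Neural adhesion genes were the groups most often assigned a member. A gene can only be assigned one when its TSS borders a gap of more than 1 Mb between TSSs of the annotation. At a chromosome end, more than 500 kb beyond the first or last TSS is enough. These counts therefore describe which genes border gaps as well as where peaks lie. The lists were chosen with earlier results of these data known, and the level for all genes in the table is 5.15%. Of 18 classical cadherins, the calcium-dependent adhesion proteins, 11 had a member (61.1%, 35.7 to 82.7), 1144 members in all, led by Cdh10 with 379 and Cdh8 with 200. Of 10 protocadherins outside the gene clusters, 7 did (70.0%, 34.8 to 93.3), with 1239 members, led by Pcdh7 and Pcdh9. Of 11 contactin and Cntnap genes, which organise axon and node contacts, 7 did (63.6%, 30.8 to 89.1), led by Cntnap5b and by Cntn5 with 79. Their members were not high in signal: 6.03%, 6.30% and 6.71% were among the upper 10%, near the 6.65% of all members.

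Other neuronal and developmental lists came next. Leucine-rich repeat adhesion genes had a member in 11 of 25 (44.0%, 24.4 to 65.1), led by Lrrc4c with 129 and Lrfn5 with 118, both organisers of synapses. Axon guidance genes had 13 of 32 (40.6%, 23.7 to 59.4), led by the ephrin genes Efnb2 with 99 and Efna5 with 97; of their 643 members 9.80% were in the upper 10% by signal. Developmental transcription factors had 20 of 60 (33.3%, 21.7 to 46.7), led by Nr2f1 with 120. Glutamate and GABA receptors had 9 of 36 (25.0%, 12.1 to 42.2), led by Gabrg3 with 104 and Gria3 with 85. For these 4 lists and the 3 above, the lower bound of the interval lay over the 5.15% of all genes. That is no test of where peaks lie: 436 of 498 desert stretches held a member, so a share largely restates which genes border gaps. Genes that border gaps were not compared on their own.

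The remaining lists had lower shares. Developmental ligands had a member in 3 of 40 (7.50%, 1.57 to 20.4), mostly at Bmp4 with 168 of the 180. Immediate early genes, which respond first to a stimulus, had 4 of 27 (14.8%, 4.19 to 33.7), among them the nuclear receptor gene Nr4a2 with 16. Genes of chromaffin and sympathetic cells, which PC12 cells resemble, had 1 of 23 (4.35%, interval up to 21.9), namely Gata3 with 21 members, none in the upper 10%. Cytosolic ribosomal protein genes had 2 of 64, Rps29 with 27 and Rps15a with 24. Of the earlier reported α1ACT targets and the host gene Cacna1a, 0 of 4 had a member (interval up to 60.2%). MicroRNA genes had 24 of 243 (9.88%, 6.43 to 14.3), led by Mir344b-1 with 128 and Mir3556b with 85. The lower bound of this list, too, lay over 5.15%, with the same limit on its reading.

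Chemosensory receptor genes stood in large clusters, and few of them bordered a desert. Olfactory receptors had a member in 12 of 829 (1.45%, 0.750 to 2.51), yet these 12 held 1150 members, led by Olr1065 and by Olr1645 with 127. Vomeronasal receptors had 6 of 169 (3.55%, 1.31 to 7.57), with 744 members, 435 at Vom2r57 and 251 at Vom1r21. The vomeronasal members had a median signal of 3.36 and 14.7% in the upper 10%, the highest values of any list with over 100 members, whereas the olfactory members had 2.94 and 5.65%.

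**Figure D4:**
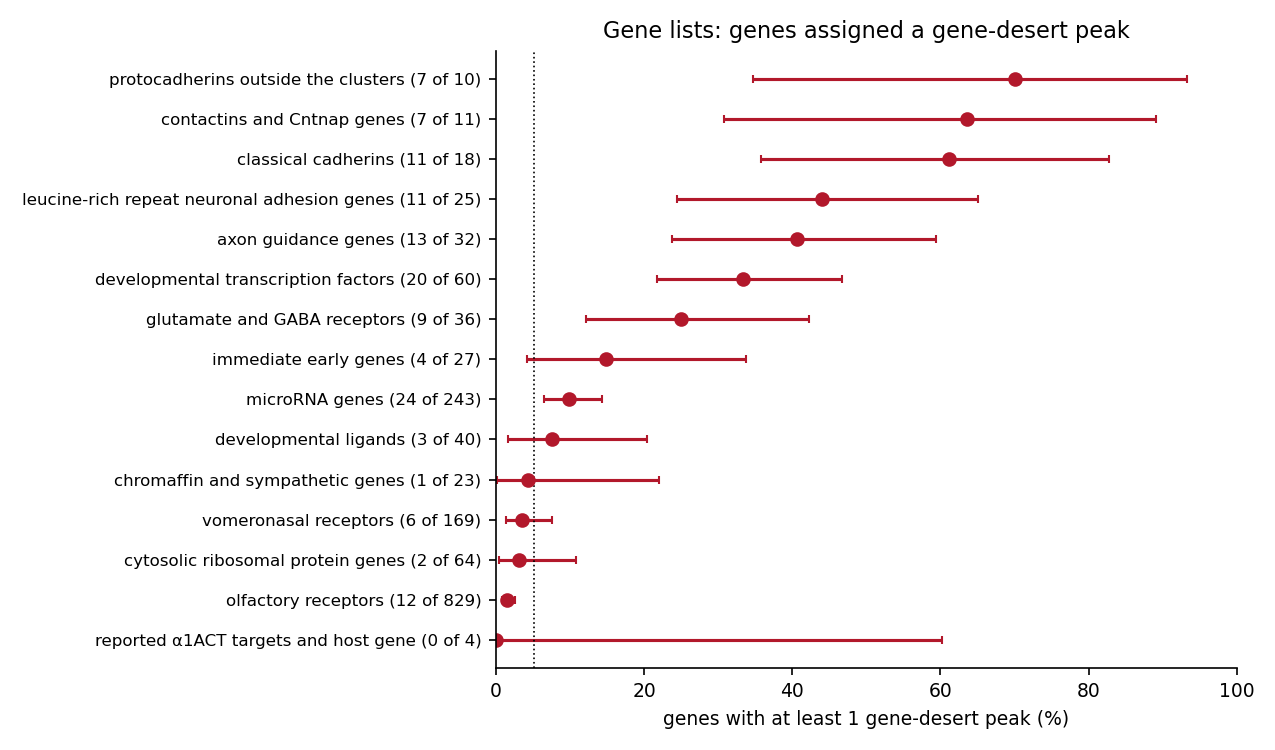
Share of the genes of each list in the authors' table that were assigned at least 1 member (%), with 95% Clopper-Pearson intervals; counts stand beside each list and the dotted line is the 5.15% of all genes in the table. Cadherin, protocadherin and contactin lists lie highest, at 61.1% to 70.0%, and olfactory receptors lie at 1.45%.

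Members lay upstream of their assigned TSS in 15646 cases (52.4%, 51.9 to 53.0). The upstream share was 55.1% (54.7 to 55.5) for intergenic peaks at 50 to 500 kb and 67.5% (67.0 to 68.1) within 50 kb. By the annotation, an intergenic peak downstream of its TSS lies beyond the end of the gene body.

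Every one of the 21 chromosomes held members, in unequal shares. Members made up 34.7% of the annotated peaks on chromosome 13, 34.6% on chromosome 14 and 29.8% on chromosome 15, but 4.64% on chromosome 10, 5.17% on chromosome 17 and 6.87% on chromosome 8. Chromosome 2 held the most, 4619 (15.5% of all members). On chromosome 4, deserts took 34.2% of the length but 13.6% of the peaks, and density there was 12.3 per Mb, against 84.6 per Mb on chromosome 14. Of the 84.7 Mb of desert on chromosome 4, 64.7 Mb was the stretch from Tmem178b to Prss37, which held no member. The low density and the gap between length and peaks there rest largely on that stretch.

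The lower signal of members was seen on most chromosomes. On all 21 the share of members in the upper 10% was below that of the other annotated peaks. On 20 of 21 it was below that of intergenic peaks within 50 kb, the exception being chromosome 16 with 8.99% against 7.36%. On chromosomes 7, 14 and X the gap was under 1 percentage point. The share with a neighbour within 1 kb was higher among members than within 50 kb on 20 of 21 chromosomes, chromosome 17 being the exception.

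**Figure D5:**
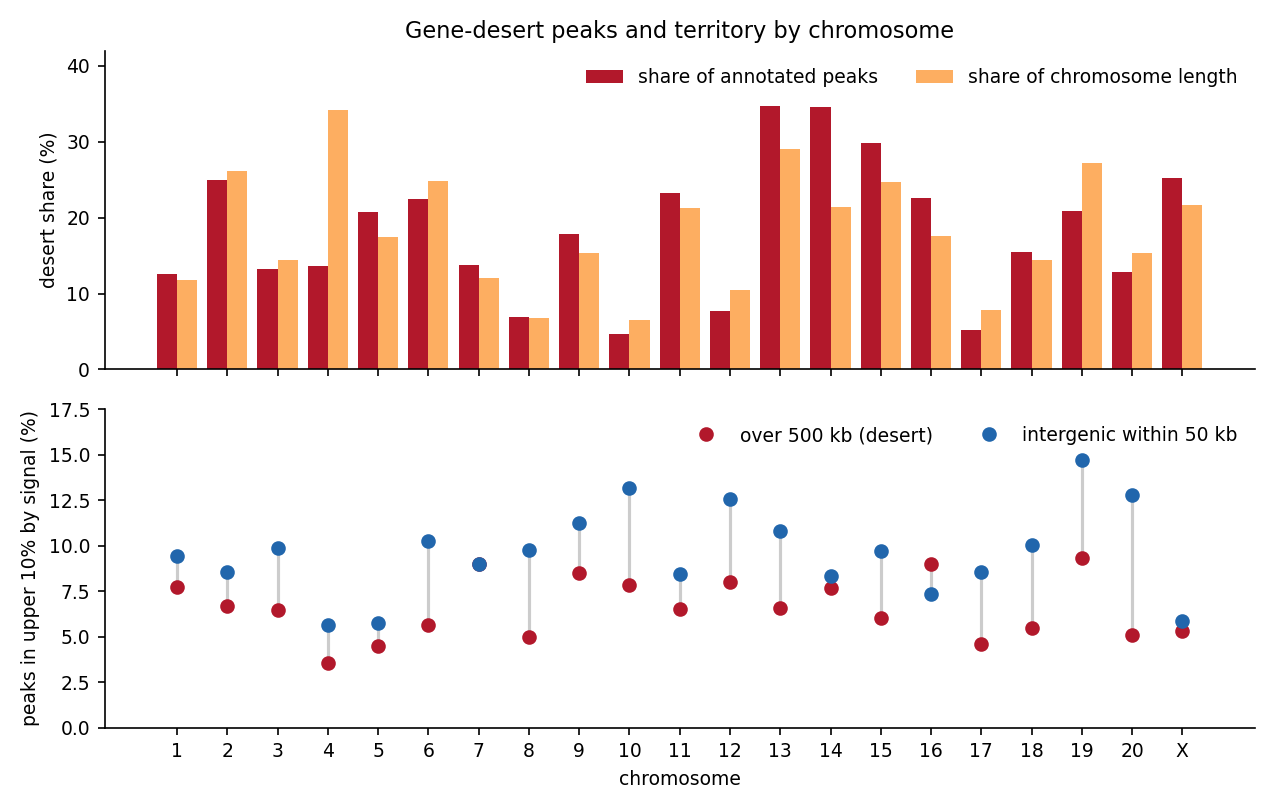
Top, members as a share of annotated peaks and desert territory as a share of length (%) for each chromosome; bottom, share of peaks among the 10% with the highest signal (%) for members and for intergenic peaks within 50 kb of a TSS. Chromosome 4 has 34.2% of its length in deserts but 13.6% of its peaks, and most of that desert is a single peak-free stretch. The member point is the lower one on every chromosome but 16.

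The other libraries listed few desert sites, and those were mostly shared. Counted by position, over 500 kb from every listed TSS and outside listed genes, such sites were 77 of 243 chromosomal EV M2 peaks (31.7%, 25.9 to 37.9), 78 of 272 EV 1804 peaks (28.7%, 23.4 to 34.4), 21 of 74 α1ACT M2 peaks (28.4%, 18.5 to 40.1) and 30745 of 161729 α1ACT 1804 peaks (19.0%, 18.8 to 19.2). Among the 271 chromosomal α1ACT 1804 peaks of highest signal it was 49 (18.1%, 13.7 to 23.2), and 9 of these 49 are in the α1ACT-only table. Desert territory was therefore a larger share of the short lists than of the α1ACT 1804 list, though the interval of the α1ACT M2 list reached down to 18.5%.

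All 21 desert sites of the α1ACT M2 list were also in the EV 1804 list and in the α1ACT 1804 list, and 20 were in the EV M2 list. None of the members overlapped an α1ACT M2 peak. This was largely set by the selection, because members overlap no EV peak and all 21 of those sites do. Of the 77 EV M2 desert sites, 65 were in the EV 1804 list and 41 in the α1ACT 1804 list. Of the 78 EV 1804 desert sites, 43 were in the α1ACT 1804 list. The 46 desert peaks of the α1ACT 1804 list that overlapped an EV peak had signals of 6.39 to 484 with a median of 65.4, far above the member median of 2.96. The highest member, at 25.5, lay below that median.

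The desert sites of the EV and α1ACT M2 lists, shared or not, were concentrated in few stretches. That between Rras2, a small GTPase gene, and Copb1, a coat protein gene of vesicle transport, on chromosome 1 held 26 of the 77 EV M2 sites, 25 of the 78 EV 1804 sites and 9 of the 21 α1ACT M2 sites, all within 0.730 Mb. The second largest set, 10 EV M2 and 9 EV 1804 sites, lay at 2:504313-557741 near the start of chromosome 2, with Erap1, a peptidase gene of antigen processing, as the nearest listed gene. It lies before the first annotated peak of that chromosome and so in none of the stretches above; 1 site, listed with both antibodies, was also in the α1ACT 1804 list and none was in the α1ACT M2 list. The Vom2r57 stretch on chromosome 7 held 9, 8 and 1, and that from Cdh19 to Tsn on chromosome 13 held 6, 6 and 1. Without that set, the other 67 EV M2 sites touched 19 stretches, the other 69 EV 1804 sites 24 and the 21 α1ACT M2 sites 12. Counted as stretches and not as peaks, the desert share of the short lists therefore rests on few places. Members of the Rras2 to Copb1 stretch numbered 329, with a median signal of 2.89 and 7.60% in the upper 10%.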

How the data were processed

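Peak positions and the signal and −log10 q-values are those the authors deposited, 1 list for each of 4 precipitated libraries. Distances in bp, features and nearest genes are from the authors' deposited annotated table. The submitters' processing notes name HOMER, ChIPseeker, DiffBind, BWA 0.7.5a and FastQC 0.11.2 with build rn5 and no roles. Peak calling settings are not given in the sources. Table rows were joined to the list by chromosome and start. Territories were built from the TSSs in the table, so genes without an assigned peak are missing. Gene order and names came from RefSeq on GRCr8, and no GRCr8 coordinate was used. No rn5 genome was used, so no sequence is shown. Shares carry exact binomial and densities exact Poisson intervals (SciPy 1.17.1, pandas 2.3.3), and the functions were tested on simulated data.

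The members and gene lists were chosen with earlier results of these data known. Named genes are the 10 with most members, those of the 10 highest-signal and the 3 farthest members, the 2 with most members in each list and the flanks of the 5 fullest stretches; 4 of these genes are not reported here. Others named, including the densest, sparsest and EV-rich stretches, were chosen after their values were seen. Alternatives were other distance limits, merged peaks, a signal limit, left-out genes or chromosomes and other neighbour distances.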

Additional observations from a re-analysis of the deposited data

Results flagged for a closer look

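The α1ACT 1804 list held 851 peaks over 500 kb from every listed TSS that have no row in the annotated table and overlap no EV peak. All lie outside the range that the table's rows span on each chromosome, so no assigned gene or distance was given for them. They are called out because the results on members above leave them out. They do count among the 30745 desert sites of the α1ACT 1804 list that were counted by position. With 1 more that overlaps an EV peak, 852 desert peaks of the list lay outside that range. The 851 had a median signal of 3.18, against 2.96 for the members.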

How the results depend on the processing

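No paired analysis was possible because each group holds 1 library, and no library could be left out. Of 102 values under alternative settings, 46 moved by less than the counting error or 1.5 times for counts, 55 moved more and 1, the density ratio at a limit of 1 Mb, reversed. The share of desert peaks in the upper 10% by signal minus that within 50 kb, -2.71 percentage points, stayed below 0 in 10 of 10 alternatives.

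A limit of 250 kb gave 50435 members (31.6% of annotated peaks), 57.0 peaks per Mb, a density ratio to 3 to 50 kb of 1.11 and 1605 genes, the 10 largest with 8.56% of members, and 223 listed genes with a member in place of 130. A limit of 1 Mb gave 13150 members (8.25%), 45.0 per Mb, a ratio of 0.879, below 1 where the main value of 1.06 is above it, and 247 genes, the 10 largest with 23.5%. Desert shares at these limits were 50.2% and 16.0% for EV M2, 47.4% and 14.0% for EV 1804, 41.9% and 16.2% for α1ACT M2 and 32.1% and 8.26% for α1ACT 1804 peaks; for the 271 highest α1ACT 1804 peaks the share at 500 kb was 18.1%.

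Merging peaks within 500 bp gave a member share of 18.3%, a median signal of 3.11, 8.04% in the upper 10%, 42.4 per Mb, a ratio of 1.01, 31.5% with a neighbour and 53.0% upstream. Only peaks at or above the median signal gave 13877 members (17.4%), a median of 3.84, 14.3% in the upper 10%, a difference of -4.80 points, 25.2 per Mb, a ratio of 1.01, 37.3% with a neighbour and 13.3% of members at the 10 largest genes. Leaving out Cntnap5b gave 18.5%, 53.3 per Mb, a ratio of 1.04, 11.9% at the 10 largest genes and 51.6% upstream. Leaving out chromosome X gave 18.3%, 53.2 per Mb, a ratio of 1.04, 57.4% with a neighbour, 13.6% at the 10 largest genes and 53.5% upstream. Any annotation beyond 500 kb gave 19.3%. A neighbour within 500 bp was found for 37.0% and within 5 kb for 78.3%.

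Of settings chosen after seeing the data, taking out peak-free stretches gave 71.4 per Mb and a ratio of 1.39, and 1 value per group of peaks within 1 kb gave a median signal of 3.18 and 9.96% in the upper 10%. The density comparison thus moved with the distance limit and with peak-free sequence. Other limits were not run with that sequence taken out, so the share of each was not separated. The cause was not tested. Read depth is unknown, so the depth behind a signal is not given.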
